A study of Mus musculus with 8 samples.

Results

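Dppa2, Dppa3, Dppa4, Dppa5a, Fbxo15, L1td1, Utf1, Gdf3, Zscan10 and Tcl1 are genes known for transcripts found in pluripotent cells and germ cells and largely missing from somatic tissue. They were followed through every probe set annotated to one of these symbols alone, which gave 14 probe sets for 10 of the 18193 genes that the array covers with a probe set of a single symbol. No probe set of these genes also carried another symbol. The arrays came from mouse embryonic stem cells grown on feeder cells and expressing a control short hairpin RNA (shRNA) or an shRNA against Rif1, whose protein acts at telomeres, at DNA breaks and in replication timing. Each of the 4 groups held 2 arrays. The J1 control and J1 Rif1 shRNA groups were J1 cells of strain 129S4/SvJae, collected 48 h after lipofection of the shRNA. The F1 control and F1 Rif1 shRNA groups were F1 cells of the C57BL/6xC3H cross, where the knockdown was stable and the cells were at passage 16. The F1 control arrays are labelled as control shRNA under transfection, but their cell line entry names the same stable knockdown line as the knockdown arrays. The sources used here do not say whether the stable line was 1 clone or a pool, and the protocol text speaks of virus or siRNA where the sample labels speak of shRNA. Nothing states that replicate arrays came from separate cultures. The spread behind each p-value is therefore that between these arrays and may be technical.

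Genes of this kind are used as markers of pluripotent mouse embryonic stem cells, and several are bound by Oct4 and Sox2 at their enhancers. They have no common molecular function: the set holds chromatin proteins, RNA-binding proteins, a secreted ligand, a kinase coactivator, a zinc finger factor and a ubiquitin ligase adaptor. Dppa2, Dppa4 and Dppa3 are also expressed in the early embryo, where Dppa2 and Dppa4 are known to help switch on genes of zygotic genome activation. In all 8 arrays only stem cell cultures were measured, so the restriction of these genes to stem cells was not itself examined.

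RefSeq promoter sequence (GRCm38.p6) was on hand for 4 of the 10 genes, namely Utf1, Tcl1, L1td1 and Zscan10, and these 4 are shown. All of them were lower in F1 Rif1 shRNA arrays, as were Dppa4 and Gdf3, whose promoter sequence was not on hand. Each window holds the 250 bases before the annotated start, written 5′ to 3′ on the strand of the gene. Capitals mark the GC box GGGCGG, searched on both strands, so that CCGCCC marks a match on the opposite strand. Utf1 lies at chr7:139943606-139943855 (plus strand), Tcl1 at chr12:105222738-105222987 (minus strand), L1td1 at chr4:98726504-98726753 (plus strand) and Zscan10 at chr17:23600576-23600825 (plus strand).
Utf1: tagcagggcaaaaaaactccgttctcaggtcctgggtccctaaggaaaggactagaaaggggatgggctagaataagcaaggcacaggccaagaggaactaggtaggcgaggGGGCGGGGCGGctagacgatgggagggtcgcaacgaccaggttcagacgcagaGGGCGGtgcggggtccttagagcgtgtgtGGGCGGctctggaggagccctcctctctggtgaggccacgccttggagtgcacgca
Tcl1: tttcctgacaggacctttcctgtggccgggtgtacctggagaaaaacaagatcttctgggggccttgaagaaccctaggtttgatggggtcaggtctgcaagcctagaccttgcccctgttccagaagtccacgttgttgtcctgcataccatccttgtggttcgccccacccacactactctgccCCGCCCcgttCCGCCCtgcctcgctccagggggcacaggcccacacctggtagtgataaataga
L1td1: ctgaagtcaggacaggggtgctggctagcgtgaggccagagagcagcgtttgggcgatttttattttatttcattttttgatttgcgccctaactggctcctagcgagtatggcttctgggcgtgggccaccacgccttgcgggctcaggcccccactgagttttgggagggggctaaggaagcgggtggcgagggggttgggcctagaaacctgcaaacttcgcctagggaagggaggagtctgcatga
Zscan10: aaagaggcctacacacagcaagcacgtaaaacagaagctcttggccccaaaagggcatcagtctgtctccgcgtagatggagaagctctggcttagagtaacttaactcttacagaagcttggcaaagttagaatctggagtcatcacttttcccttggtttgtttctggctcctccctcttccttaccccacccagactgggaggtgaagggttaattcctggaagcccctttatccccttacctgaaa
The Utf1 window held 4 GC boxes, of which the first pair share 1 base, and the Tcl1 window held 2. The L1td1 and Zscan10 windows held 0. The octamer ATGCNAAT, the SOX motif CATTGT and the E-box CACGTG had 0 matches in each of the 4 windows. Over 32851 promoter windows of the same length, 32.7% held a GC box, 2.86% the octamer, 10.7% the SOX motif and 6.02% the E-box. The windows held 14 CpG in Utf1, 7 in Tcl1, 11 in L1td1 and 3 in Zscan10, with a median of 6 over all windows. No GC box, octamer, SOX motif or E-box was thus common to the 4 genes in these windows, and a match is a run of letters and not a measured binding site.

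The deposited values are MAS5 signals on a linear scale. All changes below are differences of log2(signal + 18) after quantile normalization, from 1 limma fit to all 8 arrays and 31605 probe sets, with p-values adjusted over all of them. A probe set was called at an adjusted p under 0.05. The 2% trimmed mean of the deposited signal lay between 192 and 196 on the J1 arrays and between 300 and 308 on the F1 arrays, and replicate arrays correlated at 0.992 to 0.997. Rif1 itself was left at 47.2% of control in J1 (log2 change -1.08, SE 0.08, adjusted p = 6.54e-05) and at 29.9% in F1 (-1.74, SE 0.08, adjusted p = 3.23e-07). The summed signal of the embryonic stem markers Pou5f1, Sox2 and Nanog lay between 13489 and 14724 in J1 arrays and between 18068 and 19661 in F1 arrays, and all 3 were above the 40th percentile of every array. The feeder fibroblast list of 11 markers summed to 7471 and 7735 in F1 controls and to 13728 and 14127 in F1 Rif1 shRNA arrays, where 8 of its 10 tested members rose and Lum stayed at or under the 40th percentile. The trophoblast list of 6 markers summed to 1157 and 1197 in F1 controls and to 8749 and 9537 in F1 Rif1 shRNA arrays, where 4 of 5 tested members rose and Elf5 stayed at or under that percentile. Of the germ cell markers Dazl, Ddx4 and Prdm1, summed to 1014 and 1029 in F1 controls and to 1926 and 1937 in F1 Rif1 shRNA arrays, Dazl rose and Prdm1 fell. Beside these and the next marker counts, 15.1% of all tested probe sets were called in F1 (8.28% higher, 6.81% lower) and 3.18% in J1. Primitive endoderm, primed epiblast and neural lists gave 2 calls higher and 4 lower of 12 tested markers in F1 and 0 in J1. In F1, 1 of 6 primitive endoderm markers rose and 2 of 3 primed epiblast markers fell. Of 3 neural markers, 1 rose and 2 fell. Feeder markers went the other way in J1, from 3961 and 3981 to 2879 and 3055, and 2 of 10 tested members fell. In both J1 groups 5 of the 11 (Col3a1, Postn, S100a4, Dcn and Lum) were at or under the 40th percentile. Trophoblast markers in J1 went from 1025 and 1124 to 853 and 883, where 1 of 5 tested members fell (Krt18, -0.61, adjusted p = 0.00324), and of the germ cell markers Dazl rose in J1 (1.32, adjusted p = 0.000320). The part of these other cells in the results below was not tested. In bulk RNA, fewer cells of a type and less RNA per cell cannot be told apart.

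Over the 13 probe sets that passed the filter on dim signals, the stable F1 knockdown changed 9 and the transient J1 knockdown 2. In F1, Dppa2 and Fbxo15 rose and Tcl1, Utf1, Gdf3, L1td1, Zscan10 and Dppa4 fell. In J1, Fbxo15 rose and Zscan10 fell. All 13 were above the 40th percentile on all 8 arrays and also passed at the 60th. The remaining probe set, 1458333_x_at of Utf1, was above the 40th percentile on 0 arrays and was not tested. Of all tested probe sets, 15.1% were called in F1 (8.28% higher, 6.81% lower) and 3.18% in J1. Among probe sets above the 60th percentile on at least 2 arrays, these shares were 19.6% in F1 and 4.38% in J1. In J1, 1.44% were called higher and 1.74% lower. The 9 F1 calls were 3 higher and 6 lower, and at the brightest probe set of each gene 8 of 10 genes were called, 2 higher and 6 lower. The median log2 change of the 13 probe sets was -0.22 in F1 and 0.03 in J1, beside -0.03 and 0.00 over all tested probe sets. On the normalized log2 scale, the arrays of the groups did not overlap at 13 of 13 probe sets in F1 (4 higher, 9 lower), where this held for 63.9% of all tested probe sets (28.4% higher, 35.5% lower). In J1 they did not overlap at 6 of 13 (4 higher, 2 lower), where this held for 39.8% (18.8% higher, 21% lower). Of these, Utf1 at 1416899_at overlapped in J1 on the deposited signal, the scale of the values by array below. As the plot of changes by probe set shows, the F1 changes of these genes went in both directions.

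**Figure D1:**
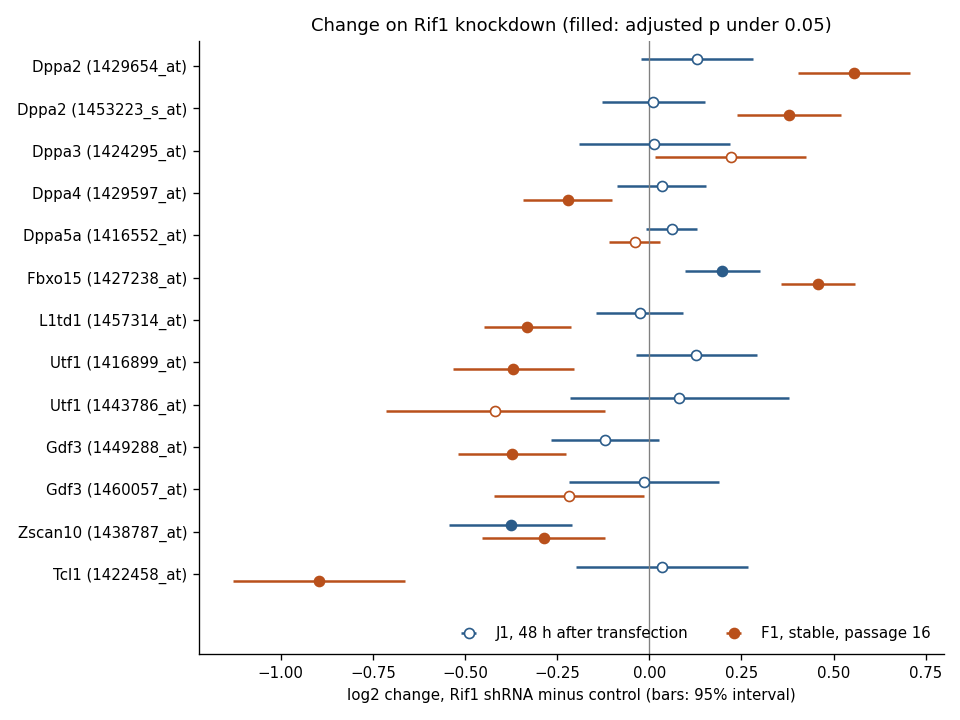
Log2 change (Rif1 shRNA minus control) of the 13 tested probe sets, with J1 in blue and F1 in orange; bars are 95% intervals of the limma fit, and filled points have an adjusted p under 0.05. In F1, Dppa2 and Fbxo15 lie above 0 and Tcl1, at -0.90, lies farthest below, while 11 of the 13 J1 points are open.

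Dppa2 and Dppa4 encode nuclear proteins with a SAP domain that bind each other and act together on chromatin, and the genes lie beside each other on chromosome 16. In F1 cells they moved in opposite directions. At the Dppa2 probe set 1429654_at the signal was 1749 and 1574 in control arrays and 2543 and 2397 in Rif1 shRNA arrays. Both knockdown arrays were above both controls, and Dppa2 rose by 0.56 (SE 0.07, adjusted p = 0.000291), which is 1.47-fold. At the other Dppa2 probe set, 1453223_s_at, the signal was 3896 and 3454 in controls and 4845 and 4725 in knockdown arrays, again without overlap. The rise there was 0.38 (SE 0.06, adjusted p = 0.00219). Both Dppa2 probe sets were called in all 18 alternative analyses. The Dppa4 signal was 3535 and 3356 in F1 controls and 3030 and 2978 in knockdown arrays, without overlap and lower in the knockdown. Dppa4 fell by 0.22 (SE 0.05, adjusted p = 0.0187) to 85.7% of control. This call did not hold without F1 control replicate 1 (0.147), F1 Rif1 shRNA replicate 1 (0.113) or F1 Rif1 shRNA replicate 2 (0.155), nor without the intensity trend (0.115), and its adjusted p ranged from 0.0108 to 0.155 over the 18 alternatives.

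In J1 cells neither gene of the pair was called. Dppa2 signals were 774 and 807 in controls and 876 and 838 in knockdown arrays at 1429654_at (log2 change 0.13, SE 0.07, adjusted p = 0.376). At 1453223_s_at they were 2409 and 2567 against 2551 and 2516 (0.01, SE 0.06, adjusted p = 0.954), and here the groups overlapped. Dppa4 signals were 1725 and 1637 against 1743 and 1701, also overlapping (0.03, SE 0.05, adjusted p = 0.809). The 95% intervals reached from -0.13 to 0.28 for Dppa2 over its probe sets and from -0.09 to 0.15 for Dppa4.

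Of 7 genes known to need Dppa2 or Dppa4, namely Syce1, Mael, Nkx2-5, Dux, Zscan4c, Zscan4d and Zscan4f, 3 had a tested probe set of their own. Mael, a piRNA pathway protein, rose in both cell lines, from 155 ± 13.7 to 291 ± 29.1 in J1 (SD, n = 2; log2 change 0.94, SE 0.10, adjusted p = 0.00123) and from 705 ± 32.0 to 1098 ± 22.4 in F1 (0.57, SE 0.10, adjusted p = 0.00312). Syce1, a part of the synaptonemal complex of meiosis, rose in F1 from 358 ± 0.290 to 1476 ± 72.2 (SD, n = 2; 1.87, SE 0.10, adjusted p = 7.95e-07) and was at 0.10 (adjusted p = 0.682) in J1. Nkx2-5, a heart transcription factor, was dim at 43.1 ± 3.38 and 42.3 ± 1.99 in F1 (SD, n = 2) and was not called in either line (-0.02 in F1, 0.07 in J1; adjusted p = 0.942 and 0.791). Mael and Syce1 in F1 and Mael in J1 were called in all 18 alternatives.

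Dppa3 and Gdf3 are neighbours on chromosome 6, in a stretch that also holds Nanog. Dppa3, also called Stella, shields the maternal genome from demethylation in the zygote, and Gdf3 is a ligand of the TGF-beta superfamily. Dppa3 signals in F1 were 1365 and 1447 in controls and 1754 and 1616 in knockdown arrays. The groups did not overlap, but the change of 0.22 (SE 0.09, 95% interval 0.02 to 0.43) was not called (adjusted p = 0.151). It was called in 1 of 18 alternatives, the fit to the 4 F1 arrays alone (0.0273), and its adjusted p ranged up to 0.607. Dppa3 signals in J1 were 309 and 282 against 323 and 274 and overlapped (0.01, SE 0.09, adjusted p = 0.963).

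Gdf3 fell in F1 at its brighter probe set. At 1449288_at the signals were 1759 and 1630 in F1 controls and 1282 and 1405 in knockdown arrays, all lower than the controls. The fall was 0.37 on the log2 scale (-0.37, SE 0.07, adjusted p = 0.00302), to 77.2% of control. It was lost in 1 of 18 alternatives, without F1 Rif1 shRNA replicate 1 (0.0640), the highest adjusted p in a range that began at 0.00215. At the second Gdf3 probe set, 1460057_at, signals were 672 and 604 against 554 and 566, in the same direction but not called (-0.22, SE 0.09, adjusted p = 0.155). In J1 the Gdf3 signals were 995 and 1016 against 914 and 903 at the first probe set (-0.12, SE 0.07, adjusted p = 0.395) and 539 and 485 against 472 and 526 at the second (-0.02, SE 0.09, adjusted p = 0.956). Neither was called in J1, and the groups overlapped at the second probe set alone.

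Dppa5a and L1td1 encode RNA-binding proteins, the first with a KH domain and the second related to the ORF1 protein of LINE-1 elements. Dppa5a had the smallest change of the 10 genes in F1. Its signals were 17953 and 18080 in F1 controls and 17615 and 17426 in knockdown arrays (-0.04, SE 0.03, adjusted p = 0.492), with a 95% interval from -0.11 to 0.03. In J1 they were 13579 and 13124 against 14094 and 14121 (0.06, SE 0.03, adjusted p = 0.368). The highest signal on any array lay between 21845 and 25950, so Dppa5a was read toward the upper end of the signals. L1td1 fell in F1, from 5896 and 5436 to 4790 and 4760, without overlap. The change was -0.33 (SE 0.05, adjusted p = 0.00173), to 79.5% of control, and it was called in all 18 alternatives. L1td1 signals in J1 were 3899 and 4190 against 3894 and 4085 and overlapped (-0.03, SE 0.05, adjusted p = 0.853).

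Utf1 and Zscan10 act in the nucleus: Utf1 binds chromatin and restrains genes poised for differentiation, and Zscan10 is a SCAN-domain zinc finger factor. Both were lower in F1 knockdown arrays. Utf1 signals at 1416899_at were 3755 and 3479 in F1 controls and 2985 and 2791 in knockdown arrays, without overlap. Utf1 fell by 0.37 on the log2 scale (-0.37, SE 0.07, adjusted p = 0.00629), to 77.4% of control. The call did not hold without F1 control replicate 1 (0.0682) or F1 Rif1 shRNA replicate 2 (0.0842), within a range over the alternatives that began at 0.000979. The dimmer Utf1 probe set, 1443786_at, read 213 and 210 against 156 and 145, a change of -0.42 (SE 0.13) that was not called (adjusted p = 0.0620) and was called in 6 of 18 alternatives (0.00457 to 0.299). Among these were the values as deposited (0.0462) and the fits without J1 Rif1 shRNA replicate 1 (0.0201) or replicate 2 (0.0199). In J1 Utf1 read 753 and 676 against 741 and 807 at 1416899_at (0.13, SE 0.07, adjusted p = 0.427) and 108 and 84 against 89 and 122 at 1443786_at (0.08, SE 0.13, adjusted p = 0.812). Neither was called.

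Zscan10 was the 1 gene of the set that fell in both lines in the reported fit. In J1 its signal was 575 and 590 in controls and 455 and 430 in knockdown arrays, and in F1 it was 826 and 775 against 641 and 697. The groups did not overlap in either line. The change was -0.38 in J1 (SE 0.08, adjusted p = 0.0247) and -0.29 in F1 (SE 0.08, adjusted p = 0.0258), which left 77.0% and 82.0% of control. Both calls were fragile. The J1 call held in 11 of 18 alternatives (0.0197 to 0.122) and was lost without J1 control replicate 1 (0.0905), J1 control replicate 2 (0.122), J1 Rif1 shRNA replicate 2 (0.0661), F1 Rif1 shRNA replicate 1 (0.0537) or F1 Rif1 shRNA replicate 2 (0.0547). The F1 call held in 13 of 18 (0.0164 to 0.284) and was lost without F1 control replicate 1 (0.194), F1 control replicate 2 (0.0584), F1 Rif1 shRNA replicate 1 (0.284) or F1 Rif1 shRNA replicate 2 (0.0744).

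Fbxo15, an F-box protein known as a target of Oct4 and Sox2 and as a reporter for reprogramming, was higher in the knockdown of both lines. F1 signals were 3558 and 3666 in controls and 5018 and 4924 in knockdown arrays, and J1 signals were 2999 and 3091 against 3491 and 3530. Controls and knockdown arrays did not overlap in either line. In F1 Fbxo15 rose by 0.46 (SE 0.05, adjusted p = 6.11e-05), which is 1.37-fold, and the call held in all 18 alternatives. In J1 it rose by 0.20 (SE 0.05, adjusted p = 0.0434), which is 1.15-fold, and the call held in 7 of 18 (0.0335 to 0.248). It was lost without J1 control replicate 1 (0.151), J1 control replicate 2 (0.130), J1 Rif1 shRNA replicate 2 (0.0797), F1 control replicate 1 (0.0634), F1 control replicate 2 (0.0632), F1 Rif1 shRNA replicate 1 (0.104) or F1 Rif1 shRNA replicate 2 (0.104).

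Tcl1, a coactivator of the Akt kinase known to support proliferation of stem cells, had the largest change of the 10 genes in F1. Its signals were 1483 and 1813 in F1 controls and 888 and 915 in knockdown arrays. Even the lower control was well above both knockdown arrays. Tcl1 fell by 0.90 on the log2 scale (-0.90, SE 0.11, adjusted p = 0.000203), to 53.7% of control, and was called in all 18 alternatives. In J1 the signals were 704 and 794 against 815 and 703, with the groups overlapping (0.03, SE 0.11, adjusted p = 0.910), and the 95% interval reached from -0.20 to 0.27.

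The plot of signals by array shows the 10 genes side by side within their own scales. The following limits bear on the J1 counts. The median residual SD was 0.115 in J1 and 0.0658 in F1, while the fit shares 1 spread, and with the 4 J1 arrays alone 0 of 13 probe sets were called by limma, with Fbxo15 at an adjusted p of 0.165 and Zscan10 at 0.0950. The ratio of 3′ to 5′ actin probe sets, a measure of RNA integrity and labelling, was 2.71 and 2.61 in J1 controls and 2.18 and 2.17 in J1 Rif1 shRNA arrays, against 1.33 to 1.41 in F1, and its part in the J1 results was not tested.

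**Figure D2:**
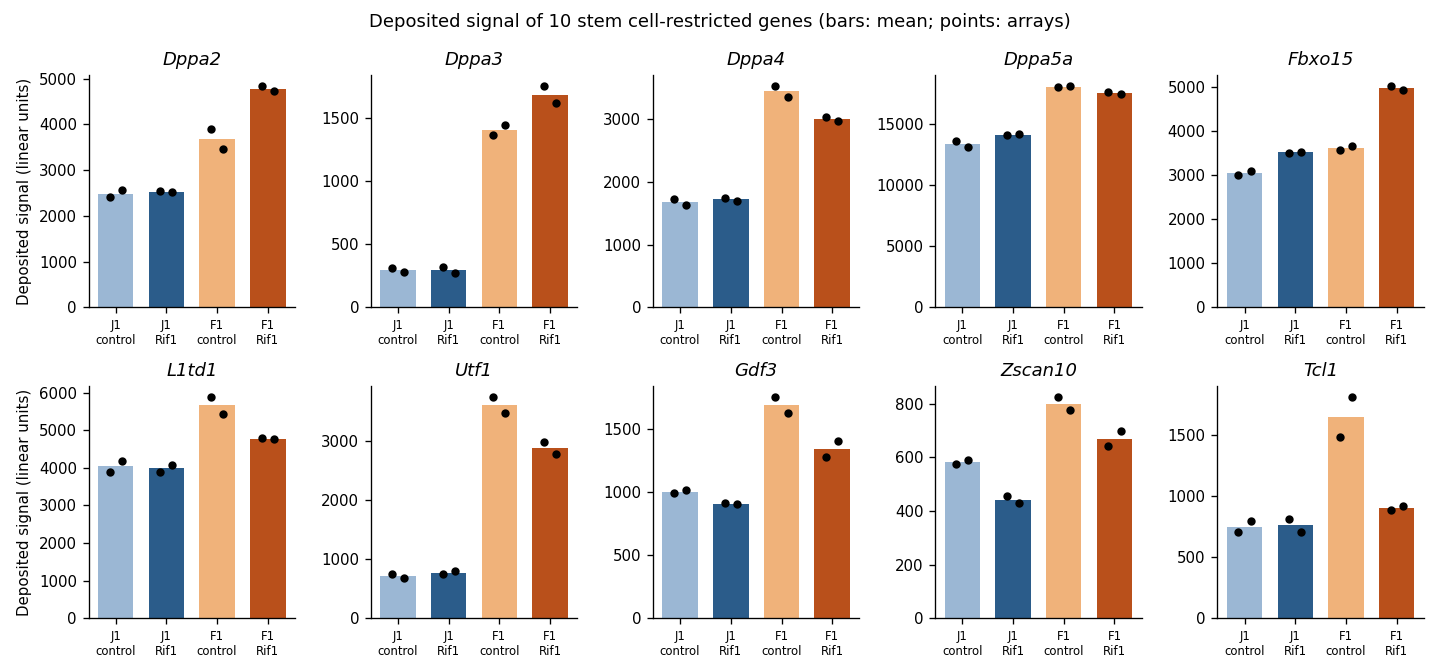
Deposited signal (linear units, 1 panel and 1 scale per gene, at its brightest tested probe set) in the 4 groups; bars are means of 2 arrays and points are the arrays. Tcl1 in F1 goes from 1483 and 1813 to 888 and 915, Fbxo15 in F1 from 3558 and 3666 to 5018 and 4924, and Dppa5a in F1 stays between 17426 and 18080.

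Whether the knockdown effects differed between the settings was tested as the F1 change minus the J1 change, which confounds cell line, strain, delivery, time in culture and depth of knockdown. This difference was called at 6 of the 13 probe sets, against 8.37% of all tested probe sets (4.99% higher, 3.37% lower) and 11.1% of those above the 60th percentile. It was positive for Dppa2 (0.42 at 1429654_at and 0.37 at 1453223_s_at) and Fbxo15 (0.26), with adjusted p = 0.0217, 0.0292 and 0.0314. It was negative for Tcl1 (-0.93), Utf1 at 1416899_at (-0.50) and L1td1 (-0.30), with adjusted p = 0.00335, 0.0143 and 0.0311. For Tcl1 the call held in all 17 alternatives that could be run, and for the other 5 probe sets it did not. The Dppa2 calls were lost without J1 control replicate 2 (0.0713 and 0.111), F1 control replicate 2 (0.0965 and 0.0986), F1 Rif1 shRNA replicate 1 (0.135 and 0.134) or F1 Rif1 shRNA replicate 2 (0.0612 and 0.105), with ranges over the alternatives of 0.0120 to 0.135 and 0.00941 to 0.141. The Fbxo15 call was lost without J1 control replicate 1 (0.0539), J1 control replicate 2 (0.0917) or any of the 4 F1 arrays (0.0561 to 0.179), in a range of 0.0244 to 0.206. The Utf1 call was lost without J1 control replicate 2 (0.0584), F1 control replicate 1 (0.0700) or F1 Rif1 shRNA replicate 2 (0.0895), in a range of 0.00274 to 0.0895. The L1td1 call was lost without J1 control replicate 1 (0.101), J1 control replicate 2 (0.0513), J1 Rif1 shRNA replicate 2 (0.0648), F1 control replicate 1 (0.124), F1 Rif1 shRNA replicate 1 (0.125) or F1 Rif1 shRNA replicate 2 (0.119), in a range of 0.0224 to 0.181. Without the intensity trend the Tcl1 difference alone was called. With values as deposited 5 of 13 were called, L1td1 being lost (adjusted p = 0.10), and with normalization inside each line 4 were called, L1td1 (0.0755) and Fbxo15 (0.0643) being lost. The difference did not pass the adjusted threshold for Dppa4 (-0.26, adjusted p = 0.0703), Gdf3 (-0.25 at 1449288_at, 0.136) or Dppa3 (0.21, 0.396). Nor did it pass for Dppa5a (-0.10, 0.217) or Zscan10 (0.09, 0.685). In this order, the unadjusted 95% intervals were -0.43 to -0.08, -0.46 to -0.05, -0.08 to 0.50, -0.20 to -0.0016 and -0.15 to 0.33. Those of Dppa4, Gdf3 and Dppa5a lie below 0, that of Dppa5a only just. The dimmer tested probe sets of Utf1 and Gdf3 did not pass either. Utf1 at 1443786_at differed by -0.50 (adjusted p = 0.147, interval -0.92 to -0.08) and Gdf3 at 1460057_at by -0.20 (0.408, -0.49 to 0.09).

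The level of the genes in the control arrays of the 2 lines was compared next. Utf1 and Dppa3 were higher in F1 controls under every scaling tried. Utf1 at 1416899_at read 3755 and 3479 in F1 against 753 and 676 in J1, a log2 difference of 1.59 (SE 0.07, adjusted p = 2.60e-08). Dppa3 read 1365 and 1447 against 309 and 282, a difference of 1.43 (SE 0.09, adjusted p = 2.39e-07). As deposited these differences were 2.31 and 2.18, and with normalization inside each line 2.33 and 2.20. In all, 10 of 13 probe sets were called, 7 higher and 3 lower in F1, against 67.5% of all tested probe sets (33.5% higher, 34% lower), so a call is common in this comparison. The 3 lower were Gdf3 at 1460057_at (-0.45, adjusted p = 0.00116), Fbxo15 (-0.37, adjusted p = 2.93e-05) and Zscan10 (-0.33, adjusted p = 0.00251). On the normalized log2 scale the arrays did not overlap at the same number, 7 higher and 3 lower, where this held for 85.3% of all tested probe sets (41.5% higher, 43.8% lower). Among probe sets above the 60th percentile the share was 72.8%.

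The direction of many of these line differences depended on the scale. The median over all tested probe sets was -0.02 in the reported fit, 0.30 as deposited and 0.31 with normalization inside each line, and the share of higher calls among all calls was 49.7%, 72.3% and 71.4%. Under the latter scalings 13 of 13 probe sets were called higher in F1. Of all 31605 tested probe sets, 16541 were called higher as deposited and 16749 with normalization inside each line. The shares called in either direction were 72.4% and 74.2%. Higher in all 3 scalings were 8 probe sets, those of Dppa3, Dppa4, Dppa5a, L1td1, Tcl1, both tested ones of Utf1, and 1429654_at of Dppa2. The other 5 changed sign, namely those of Fbxo15, Zscan10, both of Gdf3, and 1453223_s_at of Dppa2. Taken relative to the median of all probe sets, 8 were above it in all 3 scalings, and Fbxo15 alone was below it in all 3. For the genes between these ends, Dppa5a was 0.48 higher (0.43 as deposited), Tcl1 0.34 (1.11), Dppa4 0.33 (1.03) and Dppa2 at 1429654_at 0.28 (1.05), while L1td1 was at 0.01 (0.48). Some of these calls were lost when 1 array was left out: Dppa2 was lost without F1 control replicate 1 (0.0516), and Tcl1 without J1 control replicate 1 (0.114) or F1 control replicate 2 (0.172). Cell line, strain, delivery of the shRNA, time in culture and hybridisation cannot be told apart here, and the actin ratio above differed between the lines as well.

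**Figure D3:**
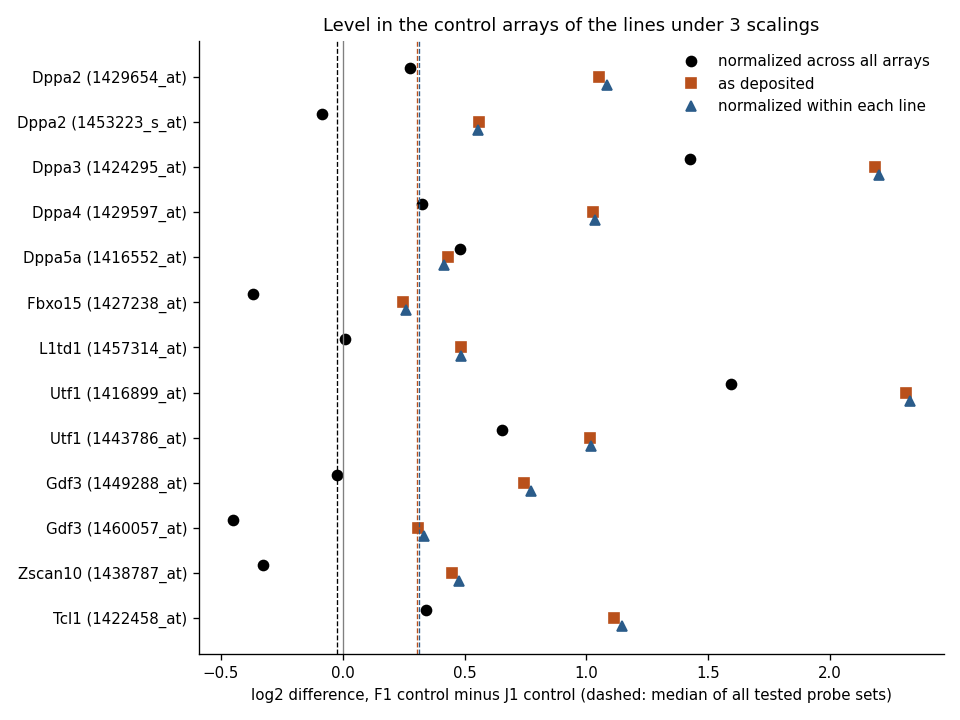
Log2 difference between F1 and J1 control arrays for the 13 probe sets under 3 scalings (black: normalized across all arrays; orange: as deposited; blue: normalized within each line), with dashed lines at the median of all tested probe sets. Utf1 (1416899_at) and Dppa3 lie at 1.59 and 1.43 or higher in each scaling, whereas Fbxo15, Zscan10, Gdf3 and 1453223_s_at of Dppa2 change sign.

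Other genes enriched in stem cells were followed as a list of 25, of which 24 were tested. In F1, 9 fell and 2 rose, with a median of -0.21 beside -0.03 over all tested probe sets, and 13 were not called. Over all tested probe sets the share called was 15.1% (8.28% higher, 6.81% lower), and 19.6% above the 60th percentile. The falls included Khdc3, a maternal-effect gene that also guards genome stability in stem cells, from 794 ± 65.0 to 344 ± 17.0 (SD, n = 2; log2 change -1.15, adjusted p = 1.04e-05). Ooep, whose product sits in the same oocyte protein complex, went from 3548 ± 33.5 to 2269 ± 10.8 (-0.72, adjusted p = 7.37e-06). Esrrb, an orphan nuclear receptor of the naive network, went from 2341 ± 30.6 to 1651 ± 47.8 (-0.54, adjusted p = 0.000104). The rises were Tex19.1, a germline gene that restrains transposons (0.51, adjusted p = 0.000306), and Tdgf1, a Nodal coreceptor (0.25, adjusted p = 0.0103). The other falls, named after their values were seen, were Nr0b1 (-0.60), Lin28a (-0.51), Eras (-0.48), Zfp42 (-0.28), Klf2 (-0.28) and Sox2 (-0.26). Pou5f1 (0.08, adjusted p = 0.655) and Nanog (0.14, adjusted p = 0.0898), which encode core pluripotency factors, were not called. These falls were measured beside the rise of feeder and trophoblast markers given above, whose part in them was not tested.

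Among these calls, 9 to 14 of 24 were made when 1 array was left out. Tdgf1 was lost without F1 control replicate 2 (0.0936), F1 Rif1 shRNA replicate 1 (0.0997) or F1 Rif1 shRNA replicate 2 (0.0518). Klf2 was lost without J1 control replicate 1 (0.0579), J1 control replicate 2 (0.0561), F1 control replicate 1 (0.127), F1 control replicate 2 (0.148) or F1 Rif1 shRNA replicate 2 (0.302), and Zfp42 without F1 Rif1 shRNA replicate 1 (0.0575). Nanog was called without J1 Rif1 shRNA replicate 1 (0.0471) or replicate 2 (0.0493). Over all 18 alternatives the adjusted p ranged from 0.00118 to 0.108 for Tdgf1, 0.00468 to 0.302 for Klf2, 0.00306 to 0.0575 for Zfp42 and 0.0180 to 0.373 for Nanog, and Sox2 was lost without the intensity trend (0.0674). Khdc3, Ooep, Esrrb, Nr0b1, Lin28a, Eras and Tex19.1 were called in F1 in all 18 alternatives.

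In J1, 2 of the 24 rose, Tex19.1 (0.54, SE 0.06, adjusted p = 0.00182) and Ooep (0.34, SE 0.05, adjusted p = 0.00824), and 2 fell, the zinc finger factor Sall4 (-0.34, SE 0.05, adjusted p = 0.00496) and Tfcp2l1, a naive pluripotency factor (-0.61, SE 0.10, adjusted p = 0.00993). The list median was -0.03 beside 0.00 over all tested probe sets, of which 3.18% were called. Without J1 control replicate 2, Tex19.1 alone was called, since Ooep went to 0.0654, Sall4 to 0.0528 and Tfcp2l1 to 0.0979, and without J1 control replicate 1 Tfcp2l1 went to 0.0517. Over the alternatives the adjusted p reached at most 0.0800 for Ooep, 0.0847 for Sall4 and 0.0979 for Tfcp2l1. Ooep rose in J1 and fell in F1, and this difference was called (-1.06, SE 0.08, adjusted p = 2.71e-05).

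The chromosomal neighbours of the 10 genes were taken from the RefSeq table (GRCm38.p6). They were the 2 nearest protein-coding genes on either side, with the 10 genes themselves left out. These neighbours came to 32 genes, of which 28 had a probe set and 23 were tested. In F1, 3 rose and 3 fell, and in J1, 2 rose and 0 fell; their medians were -0.02 and 0.06, beside -0.03 and 0.00 over all tested probe sets. The shares called over all tested probe sets were 15.1% in F1 and 3.18% in J1, and above the 60th percentile 19.6% and 4.38%. Next to Dppa2 on chromosome 16, Morc1, which silences transposons in the germ line, fell in F1 from 1279 ± 13.2 to 675 ± 42.7 (SD, n = 2; -0.93, SE 0.07, adjusted p = 6.76e-06) and rose in J1 from 548 ± 17.2 to 704 ± 6.58 (0.37, SE 0.07, adjusted p = 0.0160). Along this stretch in F1, Dppa4 fell, Dppa2 rose and Morc1 fell. Ooep, described above, is the neighbour of Dppa5a on chromosome 9, where Dppa5a itself was not called.

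On chromosome 6 the order was Apobec1, Gdf3, Dppa3, Nanog and Slc2a3. Apobec1, an RNA-editing deaminase, fell in F1 with Gdf3 (-0.39, SE 0.12, adjusted p = 0.0498), whereas Slc2a3, a glucose transporter, rose (0.22, SE 0.04, adjusted p = 0.00436). Neighbours of L1td1 on chromosome 4, Patj (0.65, SE 0.11, adjusted p = 0.00264) and Tm2d1 (0.38, SE 0.10, adjusted p = 0.0294), rose in F1 while L1td1 fell. In J1, Ddx43 (0.31, adjusted p = 0.103) and Cyb5a (0.21, adjusted p = 0.160) came next after Ooep and Morc1 and were not called. On chromosomes 16, 6 and 4 the genes called in F1 thus included both rises and falls, as the plot in chromosome order shows for the first pair of these chromosomes and for chromosome 9. The Morc1 call in J1 was lost without J1 control replicate 1 (0.0816) or replicate 2 (0.0771), and the Slc2a3 call without F1 Rif1 shRNA replicate 2 (0.0503), in ranges of 0.0131 to 0.0816 and 0.00219 to 0.110. Tm2d1 and Apobec1 were lost without any 1 of the 4 F1 arrays (0.105 to 0.183 and 0.122 to 0.301), and Apobec1 also without J1 control replicate 1 (0.0543) or replicate 2 (0.0539). Their ranges over the alternatives began at 0.00235 and 0.00901.

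**Figure D4:**
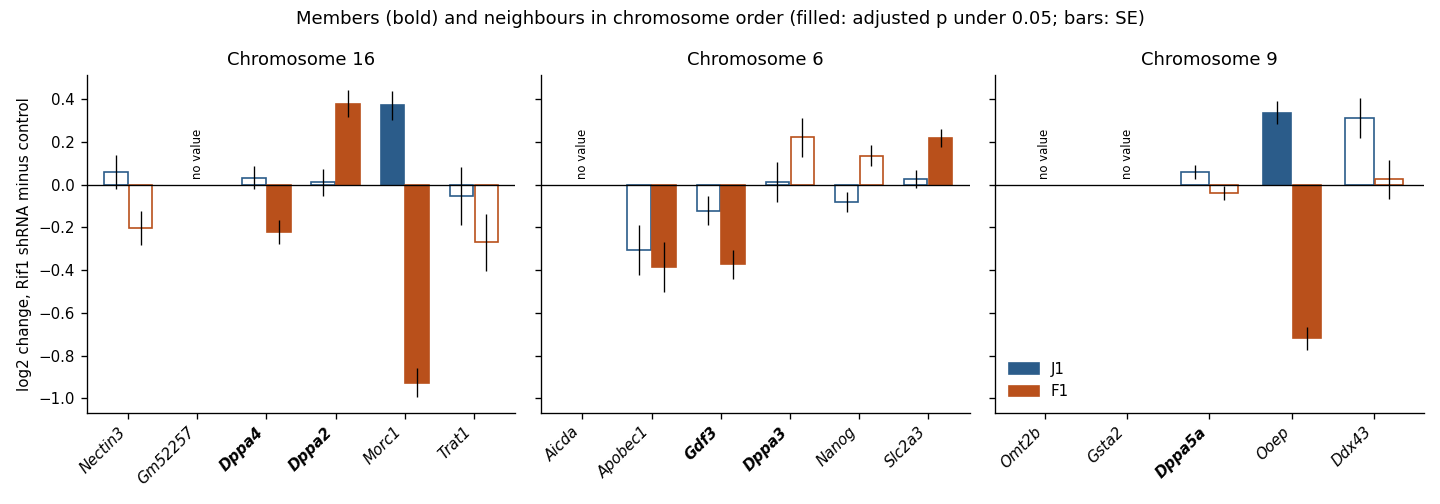
Log2 change (Rif1 shRNA minus control; bars are SE) of the genes in bold and their neighbours in chromosome order, with J1 in blue and F1 in orange, filled where the adjusted p is under 0.05. On chromosome 16 the F1 values are -0.22 for Dppa4, 0.38 for Dppa2 and -0.93 for Morc1, and on chromosome 9 Ooep is at -0.72 beside Dppa5a at -0.04.

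The genes most like 4 of the members were sought over the 8 arrays, by the Euclidean distance of log2 values centred on the control mean of their own line, among 14713 genes at their brightest probe set. Nearest to Dppa2 (1453223_s_at) were Mlkl, a necroptosis effector (distance 0.07), and Tec, a tyrosine kinase (0.11). Nearest to Dppa3 were Rmc1 and Ociad1 (0.06 and 0.08), and nearest to Dppa4 were Rfc4, a subunit of the clamp loader of DNA replication, and Pla2g2d (0.04 and 0.07). Nearest to Dppa5a were the ribosomal protein genes Mrps12 and Rps3 (0.04 for both). None of these 8 was itself one of the 10 genes. With so few members among 14713 genes this is likely in advance, and no conclusion is drawn from it. The ranks of the other members were widely spread. From Dppa4 they reached from 842 (L1td1), 1776 (Dppa5a) and 1913 (Utf1) to 12966 (Dppa2) and 13596 (Tcl1). From Dppa2, the nearest member was Fbxo15 at rank 948. These ranks are a description of 8 arrays that share the same control groups.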

How the data were processed

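Total RNA was hybridised to Affymetrix mouse 430 2.0 arrays. The authors deposited linear intensity values made with MAS5, per the submitters' processing notes, which name no version. Of 45101 probe sets, 64 were controls. Since the trimmed means differed between the lines, log2(signal + 18), with 18 taken from the 10th percentile over all 8 arrays, was quantile normalized across all arrays, and the controls were dropped. The filter kept 31605 probe sets whose signal exceeded the array's 40th percentile on 2 or more arrays. Group means were fitted by limma 3.58.1 under R 4.3.3 (moderated statistics with a trend on intensity; 4 residual and 6.94 prior degrees of freedom), two-sided, with Benjamini-Hochberg adjustment. The script was tested on simulated data. Figures used matplotlib 3.10.9 in Python 3.11.15.

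The genes, the lists and the tests were chosen with earlier results of these data known. Named from each list were the 4 genes with the smallest p in each line and, where 5 or fewer were called in a direction, all of those. A further 8 genes were chosen after their values were seen: Pou5f1, Nanog, Sox2, Zfp42, Klf2, Lin28a, Eras and Nr0b1. Alternatives covered the offset, filter, scaling, trend, arrays in the fit, replicate block and each array left out; a crossed replicate block was added after seeing the data. Gene symbols came from the platform annotation, and RefSeq tables (GRCm38.p6) gave gene order and promoters. Precision is limited by 2 arrays per group, and the offset shrinks the change of dim probe sets.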

Additional observations from a re-analysis of the deposited data

Results flagged for a closer look

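The F1 change minus the J1 change passed the threshold for several genes named above, each tested with limma as an interaction contrast in the 8-array fit. Among the stem cell-restricted genes it was 0.42 and 0.37 for the 2 probe sets of Dppa2, 0.26 for Fbxo15, -0.30 for L1td1, -0.50 for Utf1 and -0.93 for Tcl1. Rif1 itself fell further in F1 by 0.66 (-0.66, adjusted p = 0.00454). Among the other stem cell-enriched genes it was -0.50 for Esrrb (adjusted p = 0.00381), 0.27 for Sall4 (adjusted p = 0.0330) and -1.25 for Khdc3 (adjusted p = 0.000198). The Sall4 difference was lost without J1 control replicate 2 (0.107) or any 1 of the 4 F1 arrays (0.0883 to 0.158), in a range over the alternatives of 0.0142 to 0.202. Ooep (-1.06, adjusted p = 2.71e-05) and Morc1 (-1.30, adjusted p = 3.15e-05) rose in J1 and fell in F1, with every array of each group on its own side of its control. Syce1 differed by 1.77 (adjusted p = 5.38e-05), rising in F1, and Patj by 0.86 (adjusted p = 0.00748). The settings differ in cell line, strain, delivery, time and depth of knockdown, which cannot be told apart.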

How the results depend on the processing

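Of 923 pairs of a gene's probe set, comparison and alternative, 823 kept direction and call. With direction kept, 64 lost the call and 11 gained it. The other 25 turned in sign and were counted so whatever their call, which some of them gained. Leaving out 1 array moved the counts of all probe sets called to between 229 and 1763 in J1 (reported 1004), 1856 and 6211 in F1 (4768) and 1014 and 3995 for the difference (2644). The member counts moved to between 0 and 2 in J1 (2), 6 and 10 in F1 (9), and 1 and 7 for the difference (6). Without the intensity trend J1 gave 350 calls (1.11% of all tested probe sets) with 0 members. The difference then gave 1 member, beside 6.0% of all. With only the arrays compared, J1 gave 311 calls (1.12% of 27664 tested) with 0 members. F1 gave 8210 (29.6% of 27733 tested) with 11 of 13 members. The spread then came from the arrays of that line alone. The median residual SD given above was 0.115 in J1 and 0.0658 in F1, and its part in these counts was not tested. Without the filter, J1 had 1 of 14 member probe sets called, beside 1.96% of all 45037 tested. With values as deposited or normalized within each line, F1 minus J1 control turned positive for Dppa2 1453223_s_at (0.56 and 0.55), Fbxo15 (0.24 and 0.26), Gdf3 1449288_at (0.74 and 0.77), Gdf3 1460057_at (0.31 and 0.33) and Zscan10 (0.45 and 0.48); the shift of the median over all probe sets, given above, goes with this. Leaving out 1 array turned values near 0. For the line difference the ranges were -0.19 to 0.013 for Dppa2 1453223_s_at, -0.063 to 0.079 for L1td1 and -0.080 to 0.028 for Gdf3 1449288_at. In J1 they were -0.029 to 0.051 for Dppa2 1453223_s_at, -0.11 to 0.14 for Dppa3, -0.0049 to 0.070 for Dppa4, -0.061 to 0.0098 for L1td1, -0.093 to 0.26 for Utf1 1443786_at, -0.10 to 0.075 for Gdf3 1460057_at, -0.079 to 0.15 for Tcl1, -0.039 to 0.19 for Nkx2-5 and -0.018 to 0.22 for Syce1. In F1 they were -0.066 to 0.027 for Nkx2-5 and -0.063 to 0.23 for Pou5f1. The cause of these turns was not tested. Deviations of same-numbered control and knockdown arrays correlated at -0.339 in J1 and 0.194 in F1. Those of the other pairs of groups correlated at -0.059 to 0.145. These correlations do not settle whether replicate numbers pair the samples. With the replicate block, J1 gave 923 calls with 1 member and F1 4575 with 9, and Fbxo15 in J1 (0.0515) and Apobec1 in F1 (0.0640) lost their calls; a crossed block in J1, added after seeing the data, gave 1402 with 2 members in J1 and 5417 with 10 in F1, where Utf1 1443786_at gained its call (0.0222). Of the neighbours, 10 of 20 tested were called in F1 with only the F1 arrays, against 6 of 23 reported. The share called of all tested probe sets went from 15.1% to 29.6% between these fits.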

Other observations

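Zfp42, which encodes Rex1, a marker of naive stem cells, was lower in F1 controls than in J1 controls (log2 difference -3.04, SE 0.05, limma adjusted p = 1.39e-11), with signals of 1315 ± 11.9 and 7785 ± 384 (SD, n = 2). The call held in all 18 alternatives, with differences from -3.09 to -2.51. It went against Utf1 and Dppa3, which were higher in F1 controls. Zfp42 was chosen after its values were seen, and line, strain, delivery, culture time and hybridisation cannot be told apart.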
